A study of Homo sapiens with 4 samples.

Results

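Amino acid and one-carbon synthesis enzymes were examined in K562, a human erythroleukemia line established long ago in culture, treated with 3,3',5-triiodothyroacetic acid (TRIAC), a thyroid hormone metabolite. The 6 genes are *PHGDH*, *PSAT1*, *MTHFD2*, *CTH*, *ASNS* and *ASS1*, chosen by symbol from the 143 genes of the table that the authors deposited for their comparison. All cells received 10 µM hemin, which drives erythroid differentiation; 2 libraries came from cells given 20 µM TRIAC and 2 from cells given the solvent DMSO, each for 48 h. The table gives 1 expression value per group, so no spread between libraries, depth or test was available, and every difference is a description. Values below are in the authors' unit, which is not given. The 6 genes were chosen with the values of this same contrast, and the smallest difference of any gene in the table that is above 0 in both groups is 2.73-fold, so the 6 genes had to differ. The sources used here do not say if the 2 libraries of each treatment were grown as separate cultures.

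Cells make serine from a glycolytic intermediate. PHGDH catalyses the first step of that route and PSAT1 the next. Serine then gives glycine and a one-carbon unit carried on folate, which MTHFD2 oxidises in mitochondria, and it gives its carbon to cysteine in transsulfuration, where CTH releases cysteine from cystathionine. ASNS makes asparagine from aspartate, and ASS1 joins citrulline to aspartate on the way to arginine. Several of these genes are textbook targets of the amino acid response, in which the transcription factor ATF4 binds C/EBP-ATF response elements (CARE).

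The sequences around CARE matches are shown as a description. The genes and this motif were chosen with earlier results of these data known, so the share of genes with a match is not independent evidence. The motif TGATGNAA was searched on both strands within 1000 bases before and after each RefSeq start of GRCh38.p14, a window chosen after the shorter promoters had been read. It was found at 4 of the 6 genes, against 25.8% of 27305 genes in the same window. In each line the capitals mark the match, the letters run 5′ to 3′ on the strand of the gene, and a match on the opposite strand reads as its reverse complement:
PHGDH, chr1:119712786-119712815, plus strand: cgcccctcgtcTGATGCAAgactgctccgt
PHGDH, chr1:119710969-119710998, plus strand: cataattctcaTTGCATCActaatttgaaa
PSAT1, chr9:78297381-78297410, plus strand: ccctaggcgctTTGCATCAgcgtgcacagc
MTHFD2, chr2:74199202-74199231, plus strand: gctgctgcagcTGATGAAAtcgcggagccg
ASNS, chr7:97872458-97872487, minus strand: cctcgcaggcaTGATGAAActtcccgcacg
ASNS, chr7:97873276-97873305, minus strand: tatttcggtgcTGATGTAAttagtaaaata

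In *PSAT1*, *MTHFD2* and *PHGDH* a match lay downstream of the start, 267, 598 and 863 bases from it, in intron 1 of the MANE Select transcript, the model agreed on by RefSeq and Ensembl. In *ASNS* a match began at position -68 from the upstream one of its RefSeq starts. Its stretch lies outside the MANE Select transcript and overlaps an exon of 3 of its 17 GENCODE 44 transcripts. The more distant matches of *PHGDH* and *ASNS* began at positions -954 and -886, outside the MANE Select transcript. *CTH* and *ASS1* had no match in this window. A match is a run of letters and was not tested as a bound site.

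**Figure D1:**
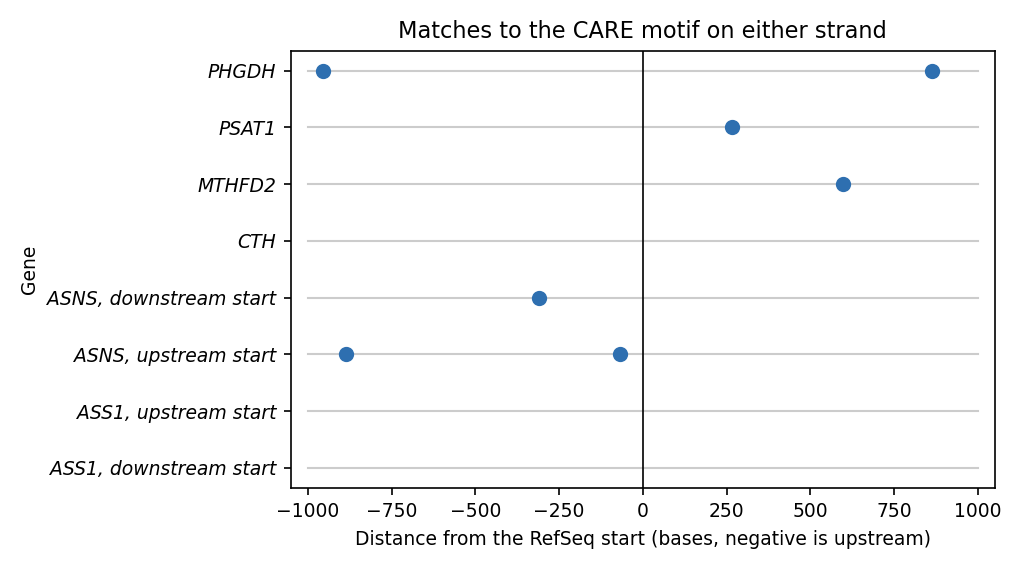
Distance of each CARE match from the RefSeq starts of the 6 genes (horizontal axis, bases, negative upstream; 1 line per start, points are matches on either strand). Matches lie at 4 genes, and the match of *ASNS* at -68 from its upstream start is the nearest to a start.

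The promoters themselves were taken from 250 bases before the RefSeq start and 50 bases from the start on. None of the 5 motifs chosen first was found there in all 6 genes, and *PSAT1* held none of them. The match of *ASNS* above was the only CARE match in the windows of these 6 genes, a motif held by 4.46% of genes. *CTH* held TGACGT, the core bound by ATF and CREB proteins, at position -147 from its start, as do 9.64% of genes. *ASS1* held CACGTG, the E-box of MYC and related factors, at position -71 from the downstream one of its starts, as do 8.77% of genes. AGGTCA, the half-site of thyroid hormone and other nuclear receptors, was found among the 6 in *ASNS* only, and in 16.5% of all genes. This 1 site lies at position 40 from the upstream start of *ASNS* and at -203 from the downstream start. The wider window was searched for CARE only, so AGGTCA and the other motifs were not sought there. TGANNNNGC is a loose form of the core of the antioxidant response element, with the base after TGA left free. It matched 5 of the 6 and 47.1% of all genes, and the stricter core was not searched. Neither of its matches in *ASNS* shares bases with a CARE match. The 2 motifs of *CTH* and *ASS1* stand in these stretches, again with the match in capitals:
CTH, chr1:70411109-70411138, plus strand: gggcggtcgcggTGACGTttcaggcaacgc
ASS1, chr9:130444878-130444907, plus strand: gcgcgtccccgcCACGTGtccccggtcacc

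A further motif, CCAAT, the box bound by NF-Y, was added after the promoters were read. It was found in the promoters of *PHGDH*, *PSAT1*, *MTHFD2* and *CTH*, 4 of 6, against 39.7% of genes. *PSAT1* held 3 copies, beginning at positions -113, -83 and -52 from its start. *MTHFD2* held copies at -184 and -74, *CTH* a copy at -117 and *PHGDH* a copy at -71. *ASNS* and *ASS1* had none in these windows. The copy nearest to the start of *PSAT1* and that of *PHGDH* read:
PSAT1, chr9:78297060-78297089, plus strand: gcgacagcacgggCCAATggggcgccgact
PHGDH, chr1:119711850-119711879, plus strand: tgagtatttccgtCCAATcaaaaggagact

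All 6 enzyme genes had a lower expression value with TRIAC than with DMSO, as had 57.3% of the 143 genes. All 6 were at least 4-fold lower, a size that 44.1% of the table reached in this direction. At 8-fold this was 4 of the 6, without *PSAT1* and *MTHFD2*, against 24.5% of the table. The median log2 ratio of TRIAC over DMSO was -3.23 for the 6 genes and -2.58 for the 80 lower genes of the table with a value above 0 in both groups. Because the rule used this contrast, nothing is read from these counts. In bulk RNA, fewer cells of a type and less RNA per cell cannot be told apart.

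**Figure D2:**
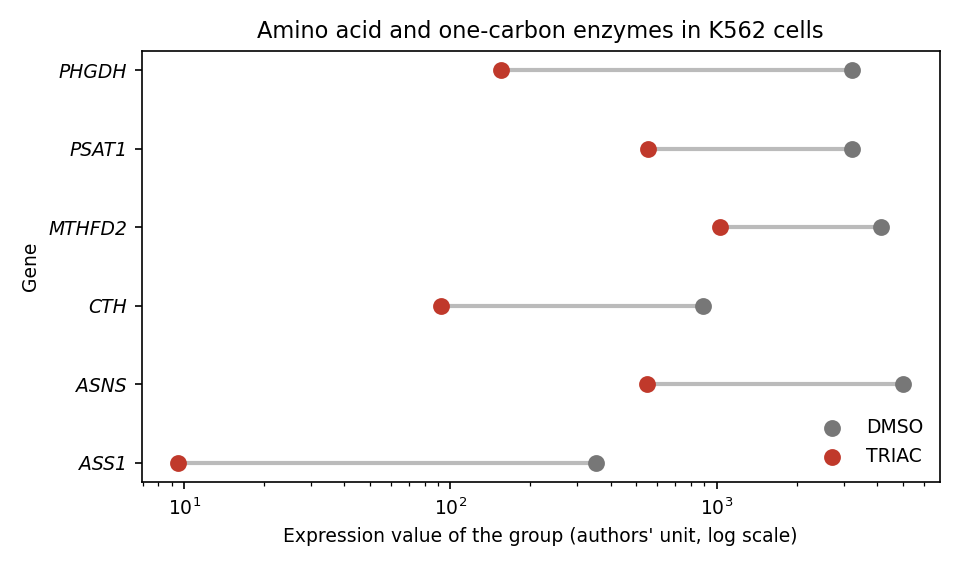
Expression values (horizontal axis, authors' unit, log scale) of the 6 enzyme genes (vertical axis) in K562 cells with DMSO (gray) and TRIAC (red), a single value each without an error. A line connects both values of 1 gene, and every red point lies to the left of its gray point, from 9.47 for *ASS1* to 1033 for *MTHFD2*.

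The first steps of the route to serine differed unequally. *PHGDH* (NCBI Gene 26227; chromosome 1, 119711934 to 119744215 in GRCh38.p14) had an expression value of 3223 with DMSO and 155 with TRIAC. This is 20.9-fold lower, a log2 ratio of -4.38, and 4.80% of the control value was left. *PSAT1* (NCBI Gene 29968; chromosome 9, 78297125 to 78330093), which acts on the product of PHGDH, had nearly the same control value, 3241, but 554 with TRIAC. It was 5.85-fold lower, a log2 ratio of -2.55, and 17.1% was left. Per kilobase of the listed length the level of *PHGDH* was 1.11 times that of *PSAT1* with DMSO and 0.312 times with TRIAC. With DMSO the order of the pair depended on the length, since *PHGDH* was 0.995 times *PSAT1* in the values as deposited and 0.690 times per kilobase of coding sequence, while with TRIAC *PHGDH* was the lower under every length used. *PSPH*, the last enzyme of the route, has no row and was not analysed here.

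*MTHFD2* (NCBI Gene 10797; chromosome 2, 74198615 to 74217565) had the smallest difference of the 6. Its expression value was 4147 with DMSO and 1033 with TRIAC, 4.01-fold lower, a log2 ratio of -2.01, and so it just passed the 4-fold size. MTHFD2 is known as a folate enzyme of embryonic and proliferating cells. *ALDH1L2*, which oxidises formyl folate in mitochondria, was the other gene of 11 for glycine and mitochondrial one-carbon units with a row. It went from 138 to 9.73 in expression value, 14.2-fold lower. Per kilobase of the listed length, the control level of *ALDH1L2* was 18.3 and that of *MTHFD2* 1868, so the gene with the larger fold difference was the much less expressed one. None of the 13 genes for cytosolic one-carbon units, *MTHFD1*, *SHMT1* and *TYMS* among them, has a row.

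*CTH* (NCBI Gene 1491; chromosome 1, 70411268 to 70439851) went from 887 with DMSO to 92.5 with TRIAC, 9.59-fold lower, a log2 ratio of -3.26. It was the only gene with a row among 9 of the methionine cycle and transsulfuration. *CBS*, which makes the cystathionine that CTH cleaves, has no row, nor has any of 6 genes of glutathione synthesis, which uses cysteine. *ASNS* (NCBI Gene 440; chromosome 7, 97851677 to 97928441) had the highest control value of the 6, 5038, and 549 with TRIAC, 9.18-fold lower, a log2 ratio of -3.20. The log2 ratios of *CTH* and *ASNS* differed by 0.06, the closest pair of the 6, although the control level of *ASNS* per kilobase was 2493 and that of *CTH* 416. Of 11 genes of asparagine, aspartate and glutamine, *GPT2*, a mitochondrial alanine aminotransferase, was the other with a row, at 609 with DMSO and 84.0 with TRIAC, 7.25-fold lower.

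*ASS1* (NCBI Gene 445; chromosome 9, 130444707 to 130501274) had the lowest expression value of the 6 in both groups and, with no pseudocount, the largest fold difference. It went from 354 to 9.47, which is 37.4-fold lower, a log2 ratio of -5.22, and 2.68% of the control value was left. Of the 140 genes that were above 0 with DMSO and with TRIAC, it ranked 3rd from the lowest log2 ratio, *PHGDH* ranked 11th, *CTH* 30th, *ASNS* 31st, *PSAT1* 42nd and *MTHFD2* 61st. The ratio of *ASS1* rests on a value of 9.47 with TRIAC. With a pseudocount of 10 added to both values, its log2 ratio was -4.22 and that of *PHGDH* was -4.30, so *PHGDH* then had the largest difference. *MTHFD2* was then at -1.99, just under the 4-fold size. *ASL*, the next enzyme towards arginine, has no row, and *ASS1* is the only gene with a row among 11 of arginine synthesis and the urea cycle.

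The ratios were unequal among the 6 genes, by factors that a common scaling of a group does not change. The log2 ratios ranged over 3.22, from *ASS1* to *MTHFD2*. Per kilobase of the listed length the highest level, that of *ASNS*, was 13.1 times that of *ASS1* with DMSO. With TRIAC the level of *MTHFD2* was 91.5 times that of *ASS1*, and 38.0 times per kilobase of the MANE Select transcript, where *PSAT1* had the highest level. *MTHFD2* had 0.749 times the level of *ASNS* with DMSO and 1.71 times with TRIAC. Which of the pair was higher is not settled by these values, as the ratios were 0.446 and 1.02 per kilobase of the MANE Select transcript and 1.32 and 3.02 per kilobase of coding sequence. *PHGDH* was 3.83 times *CTH* with DMSO and 1.76 times with TRIAC, and *CTH* was 0.167 and 0.160 times *ASNS*.

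With DMSO the order per kilobase was *ASNS* (2493), *MTHFD2* (1868), *PHGDH* (1595), *PSAT1* (1435), *CTH* (416) and *ASS1* (190). With TRIAC it was *MTHFD2* (465), *ASNS* (272), *PSAT1* (245), *PHGDH* (76.5), *CTH* (43.4) and *ASS1* (5.08). Without a spread, whether neighbours in these orders differ was not tested. The control places of the first 4 and the TRIAC places of the first 3 depend on the length used: with TRIAC *PSAT1* was above *ASNS* in the values as deposited and with both other lengths, and above *MTHFD2* per kilobase of the MANE Select transcript. The listed lengths, from 1863 to 2259 bases, equal no GENCODE 44 transcript of these genes. For *MTHFD2* the listed length is 2220 bases and the MANE Select transcript has 4403.

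**Figure D3:**
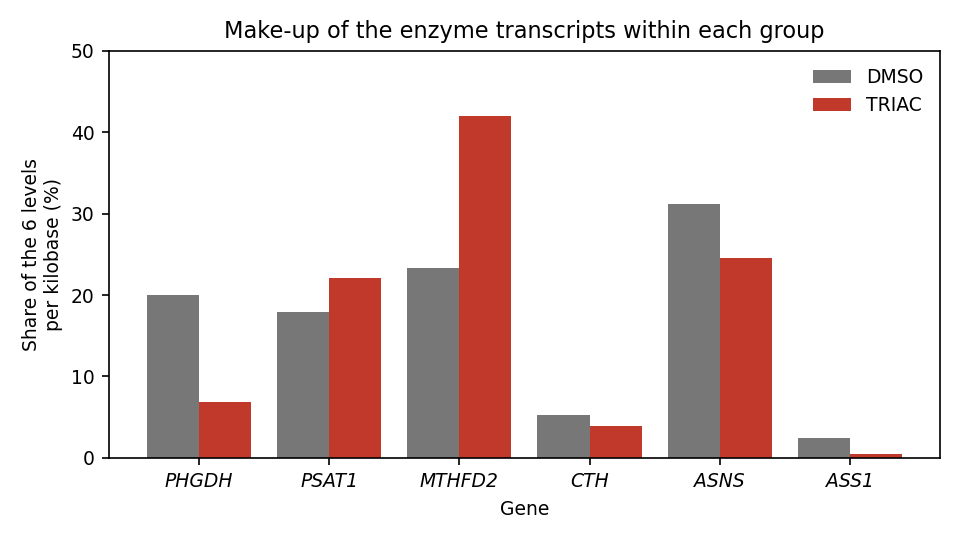
Share of each enzyme gene in the summed level of the 6 genes per kilobase of listed length (vertical axis, percent), with DMSO (gray bars) and TRIAC (red bars), 1 value per group and no error. *MTHFD2* makes up 23.4% with DMSO and 42.0% with TRIAC, and *PHGDH* 19.9% and 6.91%.

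Of the summed level of the 6 genes per kilobase, *MTHFD2* held 23.4% with DMSO and 42.0% with TRIAC. The share of *PSAT1* was 17.9% and 22.1%. The shares of the other genes were smaller with TRIAC: *ASNS* 31.2% and 24.5%, *PHGDH* 19.9% and 6.91%, *CTH* 5.21% and 3.92%, *ASS1* 2.37% and 0.459%. The expression values of the 6 genes added up to 16890 with DMSO and 2392 with TRIAC, 7.06-fold lower. They were 15.4% of the summed values of the 82 lower genes with DMSO and 9.42% with TRIAC. Among those 82 genes, ordered by control value, *ASNS* stood 6th, *MTHFD2* 7th, *PSAT1* 10th, *PHGDH* 11th, *CTH* 29th and *ASS1* 46th.

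The other genes of the pathways were read from lists written by pathway membership, with earlier results of these data known. The 8 enzyme lists hold 70 genes, of which 8 have a row, the 6 enzymes with *ALDH1L2* and *GPT2*. All 8 were lower and none was higher, where 57.3% of all genes in the table were lower. Only *ALDH1L2* and *GPT2* lie outside the 6, which were chosen with this contrast, so nothing is read from this count. The other 62 were not analysed here and cannot be called unchanged; 3 of the lists, for cytosolic one-carbon units, glutathione and proline, have no row at all. Of 14 amino acid transporters, *SLC7A5*, which carries large neutral amino acids, went from 6692 to 1562 and *SLC1A4*, which carries alanine, serine and cysteine, from 1169 to 214. Of 20 cytosolic aminoacyl-tRNA synthetases, 4 have a row and were lower, by 3.06-fold for *MARS* to 5.65-fold for *WARS*.

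Of 17 regulators and targets of the amino acid response, 8 have a row and all were lower, against 57.3% of the table. They include *DDIT4*, an inhibitor of mTORC1, at 5428 and 258, *TRIB3*, a pseudokinase that restrains ATF4, at 2614 and 547, and the transcription factors *ATF3*, at 710 and 69.0, and *ATF5*, at 2235 and 407. The median log2 ratio was -3.37 over these 8 genes and -1.82 over the 4 synthetases. *ATF4* and *DDIT3* have no row. The lists were written with earlier results of these data known, so their direction is not independent evidence.

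**Figure D4:**
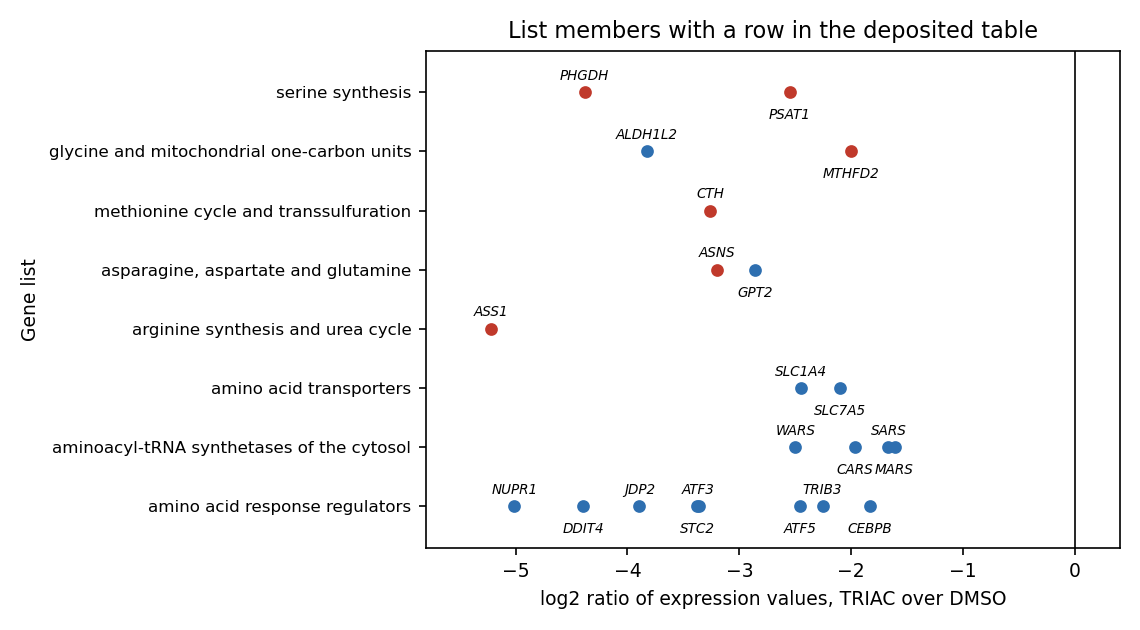
Log2 ratio of expression values, TRIAC over DMSO (horizontal axis), for genes with a row in the deposited table from lists of amino acid metabolism and the amino acid response (vertical axis; lists without a row are left out). Red points are the 6 enzyme genes and blue points other genes, 1 ratio per gene and no error; all lie below 0, from -5.22 for *ASS1* to -1.61 for *MARS*.

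The genes nearest to each enzyme were taken by distance over its 2 group values on the log2 scale. Nearest to *MTHFD2* were *SARS* (3964 with DMSO and 1248 with TRIAC, distance 0.28) and *MARS* (distance 0.32). Nearest to *PSAT1* were *TRIB3* (distance 0.31) and *GDF15*, a secreted stress cytokine (3163 and 383, distance 0.53). *ATF3* (0.53) and *GPT2* (0.56) were nearest to *CTH*. *ADM2*, a peptide hormone (285 and 10.6, distance 0.35), and *UNC5B*, a netrin receptor (306 and 12.2, distance 0.42), were nearest to *ASS1*. *ASNS* had *PSAT1* as its nearest gene (0.64) and then *GDF15* (0.85). *PHGDH* was the most isolated, with *DDIT4* at 1.05 and *GDF15* at 1.31. Each likeness rests on 2 values of a gene and only on the genes in the table.

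**Figure D5:**
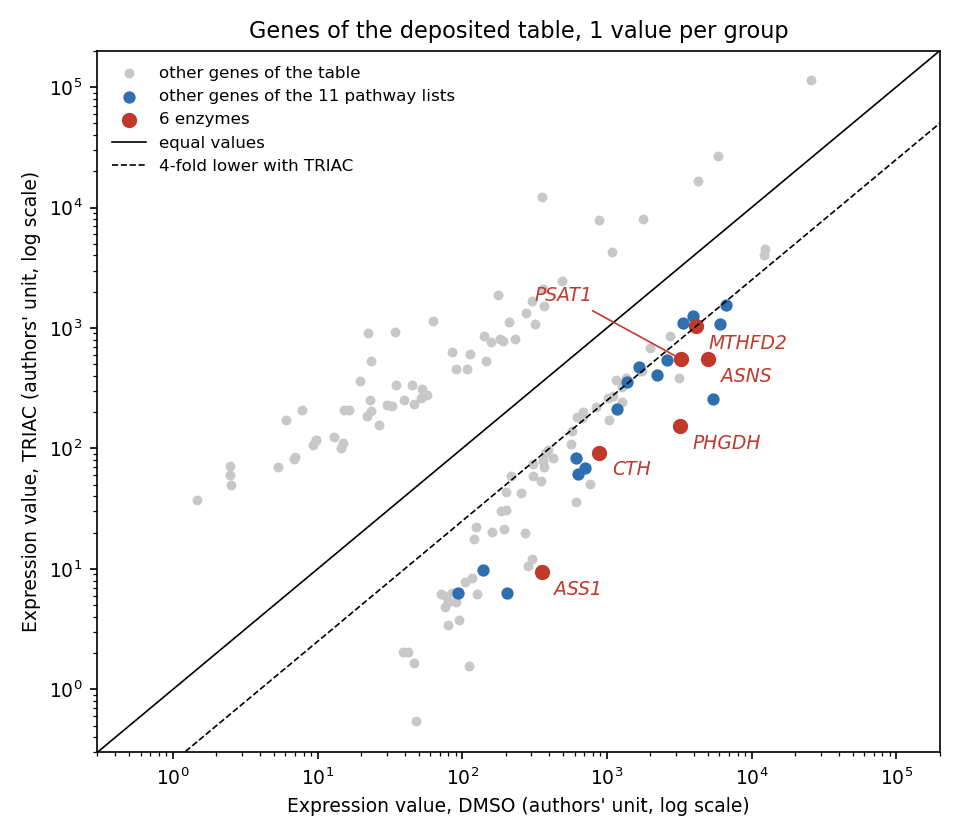
Expression values with DMSO (horizontal axis) and TRIAC (vertical axis), both in the authors' unit on log scales, for the 140 genes of the deposited table above 0 in both groups, 1 value per group. The 6 enzyme genes (red) and other genes of the pathway and response lists (blue) are marked; the 6 lie below the dashed line of a 4-fold lower value, *MTHFD2* at its edge, and no gene lies near the solid line of equal values.

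The labelled cell type was checked against erythroid markers. Of 16, 10 have a row, all higher with TRIAC, as were 42.7% of the 143 genes, and their summed expression values were 38534 with DMSO and 180606 with TRIAC. The fetal globin *HBG2* led them in both groups, with 25809 and 114251. Of 14 myeloid and lymphoid markers, 4 have a row, all lower with TRIAC, as were 57.3% of the 143 genes. Their values added up to 2106 with DMSO and 397 with TRIAC. Of 8 megakaryocyte markers *TUBB1* has a row, at 34.2 and 927. The table holds only genes that differ, so nothing is read from the marker counts. These markers differed in the same contrast as the 6 enzyme genes, and their part in the lower enzyme values was not tested. Scaling was not tested either, since the table holds no gene with near-equal values. The values of *ASS1* and *ASNS* may be uncertain where reads could be split. Of the 50-base windows of the *ASS1* MANE Select transcript, 11.9% also lie in 11 annotated *ASS1* pseudogenes. Of those of *ASNS*, 99.5% lie in an unnamed gene that GENCODE 44 annotates over it, and 2.40% in *ASNS* pseudogenes. The annotation behind the values is not given, so whether it held these other genes is unknown. The share of windows found in any other gene was 4.68% for *PSAT1*, 3.17% for *MTHFD2* and 0 for *PHGDH* and *CTH*.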

How the data were processed

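RNA of 4 K562 libraries, 2 with DMSO and 2 with TRIAC, was sequenced. Per the labels, the tools in the submitters' processing notes, with no order or settings, are RSEM, Bowtie2, edgeR, FastQC, Trimmomatic and CASAVA 1.8, with the build GRCh38. The design text instead lists Cufflinks, TopHat and BWA. The authors deposited 1 table of 143 genes with 1 expression signal value per group, in a unit that is not given. Equal low values occur in genes of different listed length (2.49 in *AHSP*, 567 bases, and *C17orf99*, 1090 bases), so the values were not treated as scaled to gene length. The table's log2 fold changes, p-values and directions are the authors' own comparison and were not used. The depth is unknown and no test was made. No sample column was unmatched.

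Ratios, levels per kilobase of listed length, shares and list counts were computed, with no pseudocount and a 4-fold size. A gene was named if it is 1 of the 6, has a row in a list, or is among the 2 nearest to 1 of the 6. Some genes of these pathways or of the response were named to say that they have no row. *AHSP* and *C17orf99* were named for their equal values. *PKLR* and *OSBP2* were named for their deposited pathway names, after their values were seen. The 6 genes, the lists and the motifs were chosen with earlier results of these data known. All 143 gene identifiers matched RefSeq (GRCh38.p14), where 8 carry another symbol. Promoters came from RefSeq, and 35116 starts were also searched in hg38. Shared 50-base windows were counted over GENCODE 44 transcripts. Alternatives were pseudocounts of 1 and 10, 2-fold and 8-fold sizes, a mean value of at least 10, and other lengths. Python 3.11.15, pandas 2.3.3, numpy 2.4.6 and matplotlib 3.10.9 were used, and the functions were tested on simulated data.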

Additional observations from a re-analysis of the deposited data

How the results depend on the processing

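No paired analysis was possible because the table gives 1 value per group; for the same reason no library could be left out. With a pseudocount of 1 or 10 all 6 enzymes kept a lower value with TRIAC, and the ratio moved by over 1.5 times for *ASS1* alone, to a log2 ratio of -4.22 at a pseudocount of 10. The 63 genes at least 4-fold lower were 35 at 8-fold. By control level, *PHGDH* was in place 3, *PSAT1* 4, *MTHFD2* 2 and *ASNS* 1. With the values as deposited *PHGDH* was in place 4 and *PSAT1* in place 3. Lengths added after the data were examined changed this further: per kilobase of the MANE Select transcript *PHGDH* was in place 2, *PSAT1* in place 3 and *MTHFD2* in place 4, and per kilobase of coding sequence *MTHFD2* was in place 1, *ASNS* 2, *PSAT1* 3 and *PHGDH* 4. Per kilobase of the MANE Select transcript the share of *MTHFD2* was 13.6% with DMSO and 27.6% with TRIAC, and that of *ASS1* with TRIAC 0.728%. With TRIAC *MTHFD2* was in place 1, *ASNS* 2 and *PSAT1* 3, but *PSAT1* was in place 2 and *ASNS* in place 3 as deposited and per kilobase of coding sequence, and *PSAT1* was in place 1, *MTHFD2* 2 and *ASNS* 3 with the MANE Select length. *CTH* and *ASS1* were in places 5 and 6 under every length. The control ratio of *PHGDH* over *PSAT1*, 1.11 per listed kilobase, fell below 1 as deposited (0.995) and per coding kilobase (0.690), and its TRIAC ratio was 0.194 per coding kilobase. The ratio of *MTHFD2* over *ASNS* was 0.446 with DMSO and 1.02 with TRIAC per MANE Select kilobase, and 1.32 and 3.02 per coding kilobase. That of *MTHFD2* over *ASS1* was 4.08 and 38.0 per MANE Select kilobase. The unknown depth limits *ASS1* most, at 9.47 with TRIAC. The coding lengths came from GENCODE 44.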

Other observations

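The pathway names written in the deposited table itself place the 6 enzymes beside other genes, which were chosen here after their values were seen. Of 6 genes named under biosynthesis of amino acids, 5 were lower with TRIAC, where 57.3% of all genes in the table were lower. Among these 5, *GPT2* alone is not 1 of the 6 enzymes, which were chosen with this contrast. *PKLR*, which encodes a pyruvate kinase, was higher, from 489 to 2450 in expression value. Of 4 genes named under glycine, serine and threonine metabolism, *PHGDH*, *PSAT1* and *CTH* were lower. The other, *ALAS2*, the erythroid enzyme that uses glycine in the first step of heme synthesis, was higher, from 19.8 to 360.0. Of 3 genes named under one carbon pool by folate, *MTHFD2* and *ALDH1L2* were lower and *OSBP2* was higher, from 141 to 859. *OSBP2* is in neither of the lists for one-carbon units used above, and only the deposited name places it here. All 3 genes named under alanine, aspartate and glutamate metabolism, *ASS1*, *ASNS* and *GPT2*, were lower. These are values of 1 comparison without a test, and nothing is read from the counts because they include the chosen enzymes.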
